A study of Eptatretus atami with 13 samples.

Results

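Tongue skeletal muscle of the brown hagfish *Eptatretus atami* was set against 12 other organs to find the genes whose transcripts it holds at far higher levels. The other organs were heart, slime gland, skin and gills, then brain, liver, gall bladder and intestine, then kidney, ovary, blood cells and adipose tissue, and each of the 13 gave 1 RNA-seq library. All 13 libraries carry the same other labels, WT genotype, whole organism as cell type and normal embryonic development as treatment, and no age is given. Levels are in FPKM, counts scaled by exon length and by the total of counts assigned to genes. A gene was taken as restricted to muscle if it had at least 5 FPKM there and at least 5 times the highest level in the other 12 organs. The rule chose 46 of 37562 gene models (0.122%), which is 0.239% of the 19238 measured models, those with at least 1 FPKM in any organ. As the rule used the levels of all 13 libraries, the ratios given below describe the choice and are not a test of it. With 1 library per organ no difference between organs could be tested, and the 95% intervals cover counting error only. In such bulk samples, fewer cells of a type and less RNA per cell cannot be told apart.

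Hagfishes lack jaws and feed by protracting and retracting toothed plates, a movement driven by a large tongue muscle. Skeletal muscle fibres are packed with sarcomeres, in which myosin heads pull on actin filaments when calcium binds the troponin complex. The myosin light chains sit on the neck of the myosin head, titin spans from the sarcomere's edge to its centre and nebulin lines the actin filament. In mammals, fibres that work in bursts draw on glycogen and glycolysis, whereas heart muscle draws mainly on mitochondria. Whether hagfish muscle and heart differ in this way was not tested.

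Skeletal muscle was the deepest library with 39077785 assigned counts, and gills the shallowest with 18800367. The 10 genes with the most counts took 48.9% of the muscle total, against 67.8% in liver and 3.96% in brain. Most other genes had lower FPKM in muscle than elsewhere. Over the 19238 measured models the log2 ratio of muscle to the middle level of the other 12 organs had a median of -1.003 with a pseudocount of 1 FPKM. The same median was -0.70 when the totals excluded each library's 10 highest genes, -0.09 with TMM factors and -0.03 with DESeq2 size factors. Accordingly the number of restricted genes rose to 71 (0.369% of measured models), 166 and 190 under these scalings, and all 46 members were among them each time. Over 61 named genes found in muscle and elsewhere, the ratio of muscle to the next organ rose by factors of 1.30 to 1.88, 2.06 to 5.17 and 2.22 to 5.69 in turn, and the intervals given below do not cover the choice of scaling. The library labelled adipose tissue was nearly the same as brain, with a Spearman's rho of 0.974 over the 19238 models, the highest of all pairs. Without it 47 genes met the rule, the 46 members, which leaving an organ out cannot remove, and 1 more. The libraries most like muscle by the same measure, a description over genes that share length and annotation, were heart (0.842) and slime gland (0.840).

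The muscle label was checked against its markers. Of 10 muscle markers with a usable symbol, 5 had their highest level in tongue muscle, namely *MYL2-1*, *TTN-2*, *TTN-3*, *TTN-5* and *SCN4A-1*. The titin models *TTN-5* (chr1:98569131-98951420) and *TTN-2* (chr1:98939960-99077723) overlapped, and *TTN-3* (chr1:99082397-99092891) lay close by on the same strand. Whether they are parts of 1 gene was not tested. *TTN-3* had 40 counts in muscle, and its ratio of 1.47 over heart had an interval of 0.64 to 3.66. *TTN-5* and *SCN4A-1* were only 1.16- and 1.13-fold above slime gland. The other 5 lay under 1 FPKM there. They were 3 nebulin models on the same strand of chromosome 1, *CACNB1-1*, a calcium channel subunit, and *MUSK*, the receptor of the nerve-muscle synapse. Symbols were available here for 1027 models, all on chromosome 1, so paralogues elsewhere in the genome are not named. On the FPKM scale, marker lists of other cell types were low in muscle. At least 1 FPKM was reached by 8 of 17 connective tissue, 3 of 23 neural, 2 of 8 blood and 1 of 15 epithelial markers, and 9 neural and 11 epithelial markers had no count. Their summed levels were 94.4, 59.7, 8.69 and 1.61 FPKM in muscle. The ranges over the other organs were 126 to 1518, 57.8 to 1404, 17.1 to 362 and 12.7 to 923 FPKM. The blood and epithelial sums stayed the lowest of the 13 organs under every scaling. The connective tissue sum, the lowest in FPKM, was in place 4 from the lowest with TMM factors and 5 with DESeq2 size factors. The neural sum moved from place 2 to 1 with the 10 highest genes left out, 7 with TMM and 9 with DESeq2.

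The 46 restricted genes took 49.8% of all counts in the muscle library (95% interval, 49.76% to 49.80%). The same genes took 2.98% in slime gland, 2.55% in gills, 2.38% in heart, 1.59% in brain and 1.47% in adipose tissue. In the remaining 7 organs they took between 0.107% in liver and 0.760% in gall bladder. Levels in muscle ran from 5.10 to 48525 FPKM with a median of 966 FPKM, and 10 members exceeded 10000 FPKM. The median ratio to the next organ was 8.90, with 21 members at 10 or more and 4 at 20 or more. For 44 of the 46 the lower bound of the interval of that ratio was also at least 5. The exceptions were EA62247, with 9.30 FPKM in muscle, and EA75454, with 5.10 FPKM, whose intervals reached down to 3.48 and 2.85. EA62247 and the other members named outside the naming rule (EA46911, EA48844, EA49604, EA60180, EA61019, EA63174, EA81519 and EA82325) were chosen after their values were seen.

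**Figure D1:**
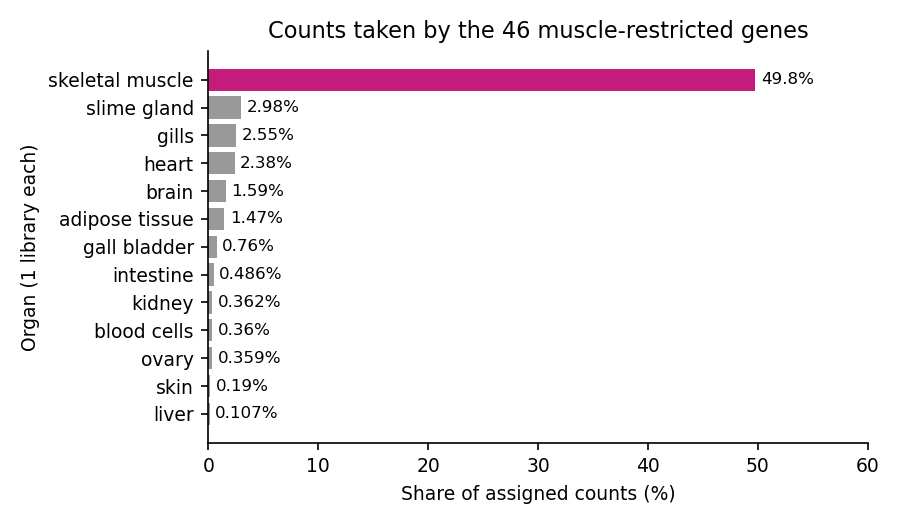
Share of assigned counts (%) taken by the 46 muscle-restricted genes in each organ, 1 library per organ. The bar of skeletal muscle reaches 49.8%, and the longest bar of another organ, slime gland, reaches 2.98%.

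Applied to every organ in turn, the same rule gave 352 genes in ovary, 161 in gills, 126 in slime gland, 78 in heart and 0 in brain. The 0 for brain and the 2 for adipose tissue come from libraries that were nearly the same. Without the adipose library brain had 772 such genes, a setting added after the data were seen. The count for adipose tissue without the brain library was not computed. The muscle set was small, but it had the highest median level of the sets that held genes. Its 966 FPKM compares with 230.0 FPKM for the slime gland set and 134.5 FPKM for the heart set. With the 10 highest genes left out of the totals the muscle median was 755 FPKM over 71 genes, and the next highest, that of liver, was 354 FPKM. As the rule used these levels, the medians only describe the sets. They were not computed with TMM or DESeq2 factors, under which the muscle set held 166 and 190 genes.

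Near the threshold, EA43410 (ratio 5.37 over gills), EA75454 (5.46 over adipose tissue) and EA61378 (5.64 over slime gland) lay just inside. Just outside lay EA11371 with 41.3 FPKM in muscle and 8.27 FPKM in gills, EA75176 with 18.2 and 3.76 FPKM in slime gland, and EA71769 with 385.8 and 80.0 FPKM in slime gland. Each of these 3 would have been a member with the 10 highest genes left out of the totals.

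**Figure D2:**
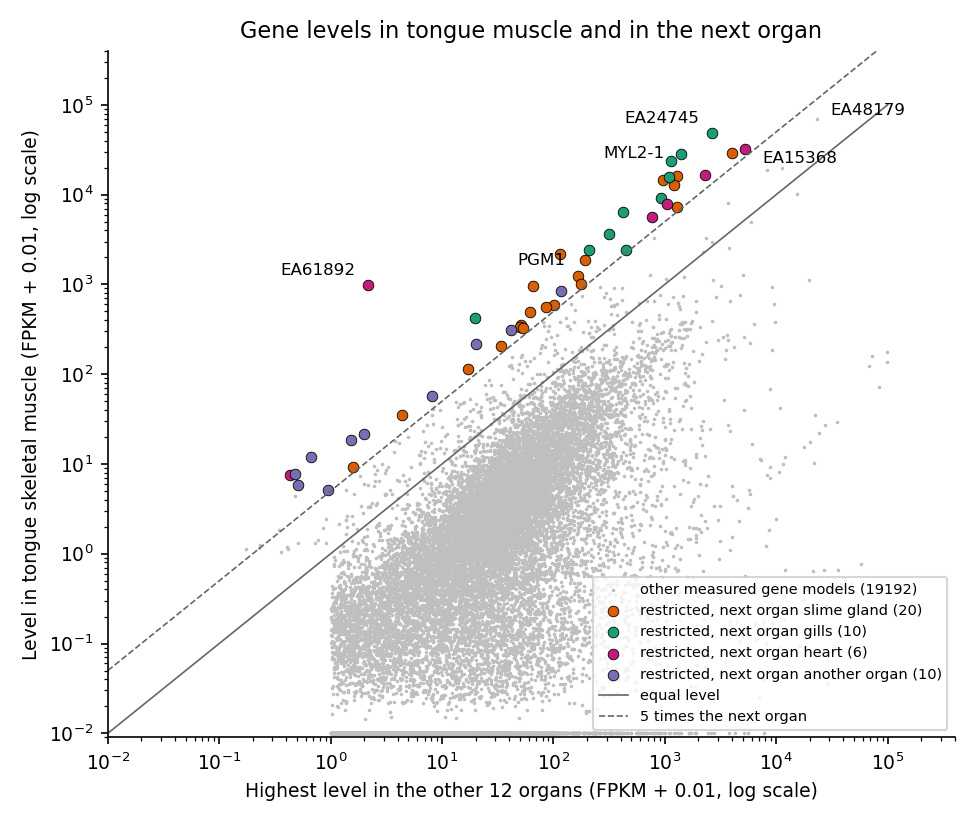
Level in tongue skeletal muscle against the highest level in the other 12 organs, both in FPKM + 0.01 on log axes, for 19238 measured gene models. Coloured points are the 46 restricted genes by their next highest organ (slime gland 20, gills 10, heart 6, another organ 10), grey points the rest, and the lines mark equality and a ratio of 5. EA61892 stands apart from the other members, with 975 FPKM in muscle and 2.16 FPKM in the next organ.

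*MYL2-1* (EA36468, chr1:90658704-90667308, plus strand, 7 exons) is the restricted sarcomere gene with a symbol, and it is named for the regulatory light chain of myosin. In mammals MYL2 is the light chain of the heart ventricle and of slow skeletal fibres. In hagfish *MYL2-1* had 28576 FPKM in tongue muscle, the fifth highest level of that library. Over the other 12 organs its level ran from 0.46 FPKM in liver through a median of 2.42 FPKM to 1408 FPKM in gills. Heart held 31 counts, or 1.35 FPKM, and slime gland 1.40 FPKM. Muscle was thus 20.3-fold above gills (95% interval, 19.9 to 20.7), and every organ but gills and intestine (39.1 FPKM) lay under 10 FPKM. The same ratio was 37.8 with the 10 highest genes left out, 104.9 with TMM factors and 115.4 with DESeq2 size factors.

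Several unnamed genes had the same distribution as *MYL2-1*, high in muscle, next in gills and almost absent from heart and slime gland. EA24745 (chr5:21106712-21117655) was the most abundant restricted gene, with 48525 FPKM in muscle, 2667 FPKM in gills, 69.3 FPKM in intestine, 1.98 FPKM in slime gland and 1.25 FPKM in heart. EA35427 (chr7:3258181-3269016) had 23910.2 FPKM in muscle, 1141 FPKM in gills, 35.4 FPKM in intestine, 1.21 FPKM in heart and 0.47 FPKM in slime gland. EA54246 (chr14:41065871-41099654), a long model of 45 exons and 5982 bases, had 15525 FPKM in muscle, 1086 FPKM in gills, 24.9 FPKM in intestine, 2.31 FPKM in slime gland and 1.96 FPKM in heart. Intestine came after gills for EA24745, *MYL2-1* and EA54246, whereas EA35427 had more in brain (55.5 FPKM) and adipose tissue (46.7 FPKM) than in intestine. EA54246 took 3629215 counts, the second largest number in the muscle library.

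In all, gills came next for 10 members. Their gill level was 4.65% to 18.6% of the muscle level, with a median of 6.80%, and their intestine level 0.036% to 0.225%, with a median of 0.160%. Heart reached at most 1.36% and skin at most 0.064%. Besides the 4 genes above, the set held EA52848 (9069 FPKM in muscle and 927 FPKM in gills), EA81863 (6381 and 421 FPKM), EA81519 (3597 and 312 FPKM), EA43410 (2389 and 445 FPKM) and EA33722 (422 and 19.6 FPKM). EA82325 completed it, with 2434 FPKM in muscle, 207.6 FPKM in gills and 29.6 FPKM in heart. EA52848 departed from the others in having 418 FPKM in slime gland and 123.1 FPKM in heart. Whether the gill library contained muscle tissue was not tested.

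**Figure D3:**
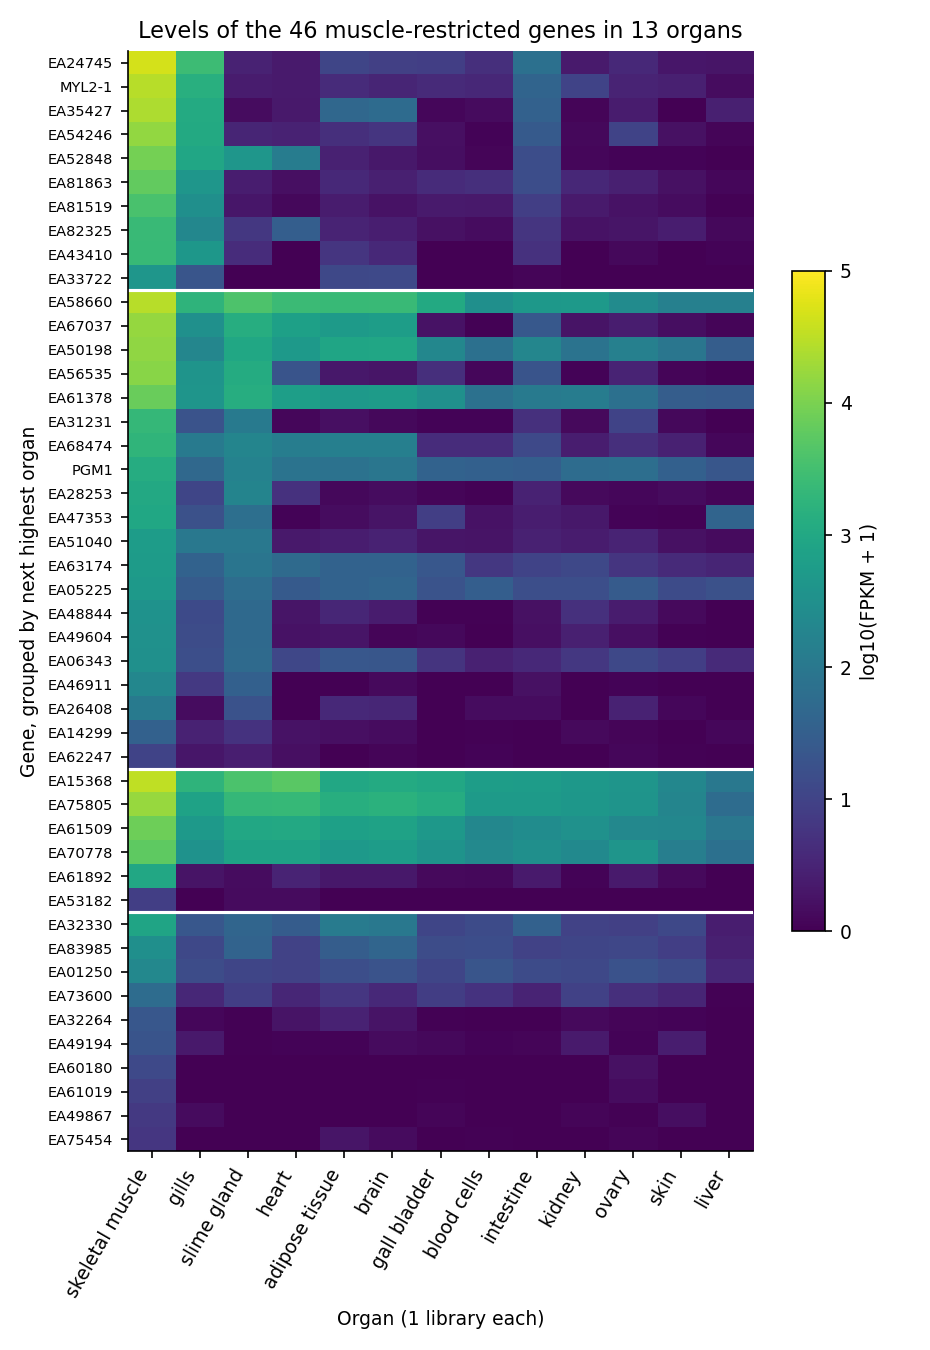
Levels of the 46 muscle-restricted genes as log10(FPKM + 1) in 13 organs, 1 library each, with rows grouped by the next highest organ (gills, slime gland, heart, others; white lines) and ordered by muscle level. In the top block, *MYL2-1* and its companions are bright in muscle and gills and dark in heart, whereas EA15368, EA75805, EA61509 and EA70778 have at least 58.7 FPKM in every organ.

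Slime gland came next for 20 members, the largest number, with levels of 5.33% to 17.7% of muscle. The most abundant was EA58660 (chr4:136549030-136565101), with 28798 FPKM in muscle, 4037 FPKM in slime gland, 2597 FPKM in heart and a lowest level of 150.4 FPKM in skin. EA67037 (chr8:126301023-126358487) had 16101 FPKM in muscle, 1287 FPKM in slime gland and 699 FPKM in heart, but 0.07 FPKM in blood cells. EA50198 (chr9:26410973-26473009) had 14480.4 FPKM in muscle, 969 FPKM in slime gland and a median of 195.0 FPKM over the other organs. These 3 were shared with heart as well as slime gland, but brain and adipose tissue held them too. EA58660 had 2410 FPKM in brain and 2294 FPKM in adipose tissue, and EA67037 had 595 and 524 FPKM. EA50198 had 926 and 872 FPKM there, above its 492 FPKM in heart. EA56535 (chr12:11891149-11905788) had 12908 FPKM in muscle, 1217 FPKM in slime gland and 387 FPKM in gills. Its levels were lower in heart (18.6 FPKM), brain (0.96 FPKM) and adipose tissue (1.08 FPKM). EA31231 had the largest ratio of these 20 genes, 18.8 (95% interval, 18.2 to 19.4), with 2159 FPKM in muscle, 115.0 FPKM in slime gland and 0.24 FPKM in heart.

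Heart came next for 6 members, and 4 of them had at least 58.7 FPKM in every organ. EA15368 (chr11:9148056-9171515) was the third most abundant gene of the muscle library, with 32579 FPKM there, 5275 FPKM in heart and 97.2 FPKM in liver, the lowest. EA75805 (chr3:175569093-175576081) had 16736 FPKM in muscle, 2272 FPKM in heart and 58.7 FPKM in liver. EA61509 had 7802 FPKM in muscle, 1046 FPKM in heart and 93.4 FPKM in liver, and EA70778 had 5677, 765 and 68.8 FPKM. Relative to muscle these 4 genes were alike in heart, slime gland and gills, where the rule itself limits how high each can be. They reached 13.4% to 16.2% in heart, 11.8% to 13.2% in slime gland and 4.62% to 6.35% in gills. In other organs they were less alike. Despite their unequal muscle levels, EA15368 and EA70778 had 400 and 403 FPKM in ovary, and 1155 and 589 FPKM in brain.

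EA61892 (chr4:17036545-17143423) was the member furthest from any other organ. This model of 85 exons and 11523 exon bases, the longest of the 46, had 975 FPKM in muscle from 439148 counts. Its highest level elsewhere was 2.16 FPKM in heart, and the median of the 12 organs was 0.67 FPKM. Muscle was 452-fold above heart (95% interval, 405 to 505), against 21.5-fold for EA33722, the member with the second largest ratio. For EA61892 the ratio was 720 with the 10 highest genes left out, 1413 with TMM factors and 1565 with DESeq2 size factors.

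The members also differed in whether heart and slime gland held them at 1% of the muscle level or more, a limit set after the values were seen. Both organs did for 21 members, which together took 25.8% of the muscle counts. Neither did for 14 members, among them EA24745, *MYL2-1*, EA35427, EA54246 and EA61892, and these took 19.6%. Slime gland alone did for 9 members, including EA56535 and EA31231, and heart alone for 2. The 21 genes at this limit in both organs and the 14 under it in both had median levels of 1249 and 1682 FPKM in muscle. Being under the limit does not mean absence, as EA24745 had 1.25 FPKM in heart and 1.98 FPKM in slime gland. With the 10 highest genes left out of the totals, both organs reached the limit for 20 members and neither for 15. Slime gland alone then did for 10 and heart alone for 1.

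Slime gland thus limited the set more than any other organ tried. Without slime gland 95 genes met the rule, and without heart 61. With both left out, a setting added after the data were seen, the number was 174, and with gills left out as well 200. All 46 members stayed in each by construction, since leaving an organ out cannot lower a ratio. By contrast, the gene models with a listed domain of myosin, troponin or calpain that were high in slime gland were far lower in the tongue. As they were picked for their slime gland level, this contrast partly describes the choice. Domains came from a source list of 1998 entries that held only 2 of the 46 members. The domains of the other members were therefore not known. Where an entry's position belonged to another model, its domains were given to the model at that position. Whether this holds for the models below was not tested. EA65166, with the head and tail domains of myosin, had 0.17 FPKM in muscle and 3806 FPKM in slime gland. EA85187, with a troponin domain, was still on in muscle at 11.3 FPKM, from 366 counts, against 7171 FPKM in slime gland. EA63888, also a myosin model, had 0.04 and 917 FPKM, and the calpain models EA52297 and EA53860 had 0.36 and 0.18 FPKM in muscle. EA63888 and EA65166 lay near each other on the plus strand of chromosome 8, and the calpain models on the minus strand of chromosome 14. Whether either pair is part of 1 gene was not tested.

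The most abundant genes of the library were not all restricted. Of the 10 with the highest FPKM 7 were members, and of the 50 highest 25. The first was EA48179 on chromosome 9, with 69842 FPKM and 4145771 counts in muscle. It also had 23388 FPKM in slime gland, 19821 FPKM in heart and 2452 FPKM in gills, so that muscle was 2.99-fold above the next organ. That ratio was 6.16 with TMM factors and 6.62 with DESeq2 size factors, which would make EA48179 a member. EA09017 on chromosome 10 had 19532 FPKM in muscle, 11300 FPKM in heart and 9124 FPKM in slime gland. EA03386 on chromosome 6 had 18574 FPKM in muscle and 8193 FPKM in slime gland, but 2.28 FPKM in heart, and its ratio of 2.27 reached 5.02 with DESeq2 size factors. Together the 10 genes with the highest FPKM took 37.5% of the muscle counts, 7.37% of those in slime gland and 6.396% of those in heart.

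Position, strand and number of exons were features the rule did not use directly. Exon length did enter, through FPKM, both the minimum level in muscle and the limit for measured models. The comparison of exon bases below is therefore not independent of the rule. The 46 members lay on 15 chromosomes, with 8 each on chromosomes 4 and 9. Within 100 kb of another member lay 19 of the 46 (41.3%), in 8 groups, and within each group all models lay on the same strand. This share was not particular to muscle, since it was 62.7% for the slime gland set, 42.0% for skin, 40.8% for liver and 30.8% for heart. It was lower for gills (26.7%) and gall bladder (16%), and the share over all models was not computed. Some groups held overlapping models, described below, and whether these are parts of 1 gene was not tested. The members had a median of 9 exons and 1525 exon bases, against 7 exons and 1379 bases over measured models, and 1 of the 46 was a single exon (2.17% against 8.66%).

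On chromosome 17, EA81863 (17944651-17964673) and EA81519 (17968222-18020943) were adjacent models on the minus strand, and both followed the *MYL2-1* distribution. On chromosome 4, EA61378 (136527142-136548955) ended 74 bases before EA58660, and EA63174 (136555625-136560047) lay inside EA58660 on the same strand. Relative to muscle these 3 models had 8.82%, 9.02% and 9.44% in heart and between 14.02% and 17.7% in slime gland. Reads over more than 1 gene were left out of the counts, so the levels of overlapping models are uncertain. The same holds for EA60180 (chr4:16897304-16995774) and EA61019 (chr4:16993852-17019934), which overlapped and preceded EA61892 with only 11.98 and 7.82 FPKM in muscle. Each had its next highest level in ovary, at 0.65 and 0.47 FPKM. On chromosome 9, EA48844, EA49604 and EA46911 lay within 133159318-133422155 and had 352, 334 and 205 FPKM in muscle, each with slime gland next at 50.9, 50.1 and 33.5 FPKM.

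Named genes of muscle function were then described by role. Over measured models tongue muscle was the highest organ for 1.66%, and for 1.91% of those with a symbol. Restricted genes were 2 of the 943 measured models with a symbol (0.212%). Of 11 sarcomere genes 4 were highest in muscle, *MYL2-1* and the neighbouring titin models *TTN-2*, *TTN-3* and *TTN-5*, and 1 was restricted. *TTN-5*, a titin model of 223 exons, had 58.01 FPKM in muscle, 50.2 FPKM in slime gland, 30.4 FPKM in heart and a median of 0.12 FPKM over the other organs. Muscle was thus 1.16-fold above slime gland (95% interval, 1.14 to 1.17), though 2.39-fold with TMM factors and 2.56-fold with DESeq2 size factors. *DUSP27*, a phosphatase-like protein of striated muscle, was highest in heart (89.3 FPKM), with 31.3 FPKM in slime gland and 27.1 FPKM in tongue muscle, although with DESeq2 size factors tongue muscle was the highest. *CFL2-2*, an actin-severing cofilin, had 59.8 FPKM in muscle and 809 FPKM in kidney.

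The 4 nebulin models with a usable symbol, all on chromosome 1, were nearly absent from tongue muscle. Nebulin genes among the models without a symbol or a listed domain would have been missed. *NEB-4* (chr1:62198158-62263884) had 26 counts there, or 0.28 FPKM, against 1160.0 FPKM in heart, 774 FPKM in slime gland and 113.0 FPKM in gills. *NEBL*, named for the nebulin relative of heart, had 0.03 FPKM in muscle, 384 FPKM in slime gland and 311 FPKM in heart. *NEB-2* (chr1:62156264-62170445) had no count in muscle, which allows up to 0.192 FPKM, against 256 FPKM in slime gland and 105.2 FPKM in heart. *NEB-3* had 8 counts in muscle and 7.90 FPKM in heart. *NEB-2*, *NEBL* (chr1:62170532-62190512) and *NEB-4* lay in that order on the plus strand, with *NEB-3* (chr1:61741994-61934420) before them. Whether these models are parts of 1 gene was not tested, so they are not 4 independent cases. These 4 models and *MYL2-1* took opposite directions between tongue muscle and heart.

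**Figure D4:**
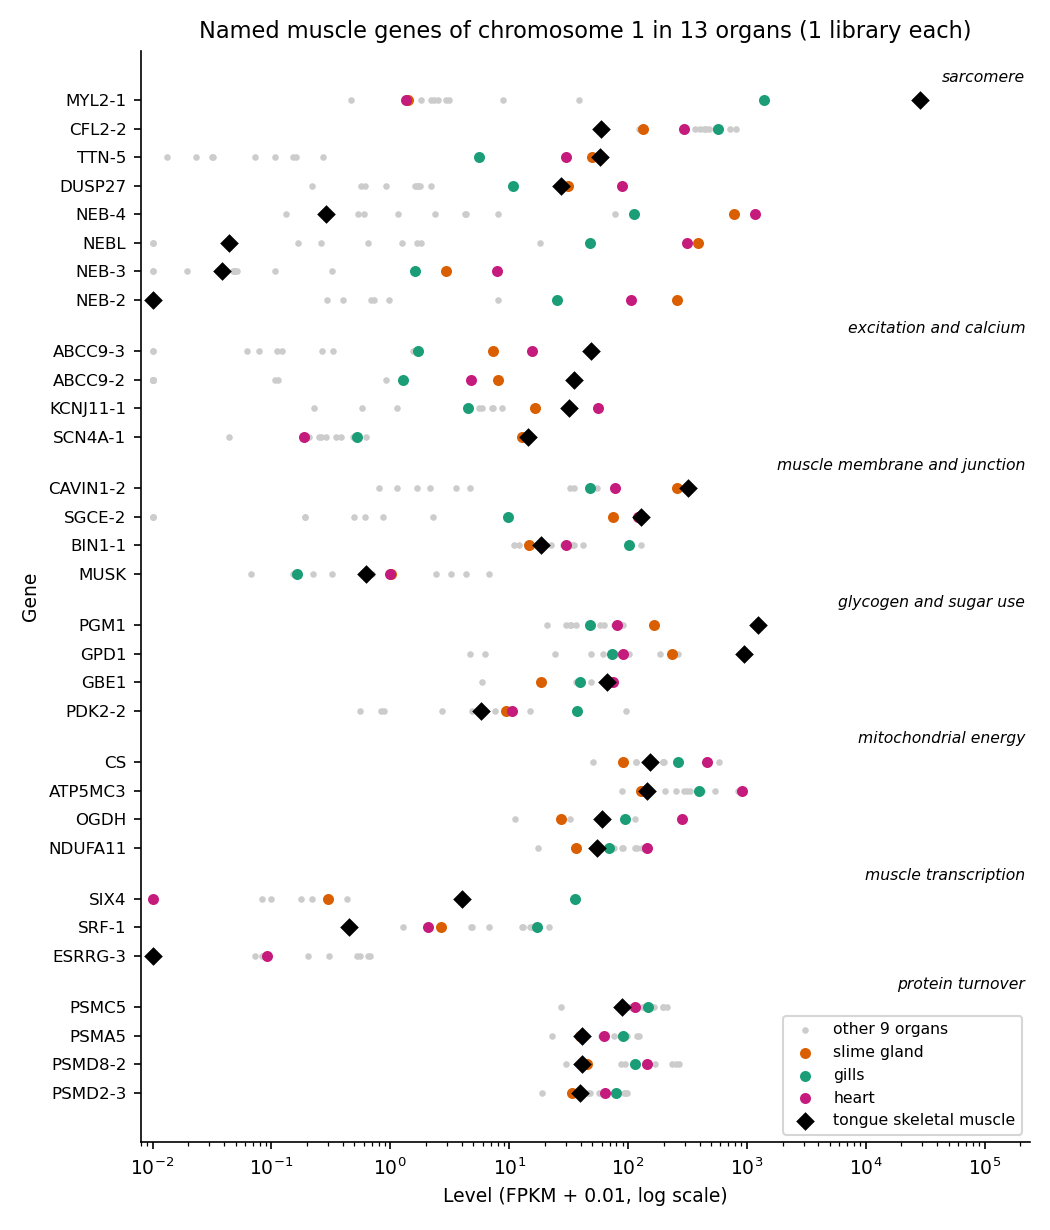
Levels (FPKM + 0.01, log axis) of up to 4 members highest in muscle of each role list and of 4 nebulin models, all on chromosome 1, in 13 organs with 1 library each. Black diamonds are tongue muscle. *MYL2-1* and *PGM1* lie to the right of every other organ, while the 4 nebulin models lie far to the left of heart, slime gland and gills.

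Among 13 measured excitation and calcium genes, 3 were highest in muscle in FPKM, but 6 were with TMM factors or DESeq2 size factors. The share of all measured models highest in muscle was not computed with those factors. *ABCC9-3* and *ABCC9-2*, neighbouring models named for the sulphonylurea receptor of ATP-sensitive potassium channels, had 48.8 and 35.1 FPKM in muscle. Both lay on the minus strand, and whether they are parts of 1 gene was not tested. The next organs were heart at 15.6 FPKM for *ABCC9-3* and slime gland at 8.05 FPKM for *ABCC9-2*. *KCNJ11-1*, named for the pore subunit of the same channel and located near them (chr1:129233687-129240519), had 31.8 FPKM in muscle and 55.6 FPKM in heart, an order that reversed with TMM factors and DESeq2 size factors. *SCN4A-1*, the sodium channel that carries the action potential of skeletal muscle, had 14.4 FPKM in muscle and 12.8 FPKM in slime gland, with 0.18 FPKM in heart and 0.51 FPKM in gills.

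Of 5 membrane and junction genes, 2 were highest in muscle, by a small margin on the FPKM scale. *CAVIN1-2*, a coat protein of caveolae, had 318 FPKM in muscle and 259 FPKM in slime gland. *SGCE-2*, a sarcoglycan of the complex that links the cytoskeleton to the matrix, had 129.7 FPKM in muscle, 122.1 FPKM in heart and 74.9 FPKM in slime gland. The ratio to the next organ was 1.23 for *CAVIN1-2* (2.54 with TMM factors and 2.72 with DESeq2 size factors) and 1.06 for *SGCE-2* (3.32 and 3.68). *BIN1-1*, a membrane-shaping protein of the T-tubule, had 18.4 FPKM in muscle and 128.2 FPKM in blood cells, and *MUSK* had 0.61 FPKM in muscle and 6.81 FPKM in adipose tissue.

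Sugar metabolism held the other restricted gene with a symbol. *PGM1* (EA36929, chr1:59333911-59442991), the phosphoglucomutase that joins glycogen breakdown to glycolysis, had 1249 FPKM in muscle and 166.4 FPKM in slime gland. Its level over the other organs ran from 20.6 FPKM in liver through a median of 53.2 FPKM, so that every organ held it, and muscle was 7.51-fold above the next (95% interval, 7.31 to 7.71). *GPD1*, the cytosolic glycerol-3-phosphate dehydrogenase, had 944 FPKM in muscle, 262 FPKM in gall bladder and 90.5 FPKM in heart. Its ratio of 3.600 rose to 5.20 with the 10 highest genes left out, which made it a member there. *GBE1*, the glycogen branching enzyme, had 66.2 FPKM in muscle and 77.8 FPKM in adipose tissue, an order that reversed under every other scaling, and *PDK2-2*, a kinase that inhibits pyruvate dehydrogenase, had 5.74 FPKM in muscle and 96.3 FPKM in gall bladder. *GYS1-1* and *GYS1-2*, named for the muscle isoform of glycogen synthase and singled out after their values were seen, had no count in muscle, which allows up to 0.198 and 0.081 FPKM. Both were highest in ovary, at 26.7 and 24.8 FPKM.

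Mitochondrial energy genes were on in tongue muscle and none was highest there. With TMM factors 4 were highest in muscle, *CS*, *NDUFA11*, *COX15* and *DMAC2L*, and with DESeq2 size factors *PET100* was as well. How many of all measured models were highest in muscle under these factors was not computed. All 16 had at least 1 FPKM in muscle. All 16 were below heart, as were 91.1% of the 13287 models on in either organ. With TMM factors or DESeq2 size factors 10 of the 16 were below heart. The share over all models was not computed with those factors, so this number has no background to be read against. *CS*, citrate synthase, had 154.3 FPKM in muscle, 461 FPKM in heart and 582 FPKM in kidney. *ATP5MC3*, a subunit of the membrane ring of ATP synthase, had 145.8 FPKM in muscle and 919 FPKM in heart. *OGDH*, of the citric acid cycle, had 60.9 and 284 FPKM, and *NDUFA11*, a subunit of respiratory complex I, had 54.8 and 145.9 FPKM. The median log2 ratio of muscle to heart over the 16 genes was -2.20, against -1.35 over the 13287 models. With the 10 highest genes left out 15 of the 16 were below heart, against a background of 82.5%, with medians of -1.60 and -0.97.

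Among transcription factors with a symbol, *SIX4*, a homeodomain factor, had 3.99 FPKM in muscle and 35.6 FPKM in gills. It had no count in heart, which allows up to 0.108 FPKM. *SRF-1*, for serum response factor, had 0.44 FPKM in muscle and 21.8 FPKM in blood cells, and *ESRRG-3* had no count in muscle and did not exceed 0.67 FPKM elsewhere.

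Protein turnover genes were placed by the scaling. Of 12 measured genes 1 was highest in muscle in FPKM, but 6 were with TMM factors or DESeq2 size factors. The share of all measured models highest in muscle, 1.66% in FPKM, was not computed with those factors. Their median log2 ratio to the other organs was -0.88, which lay 0.12 above that of all measured models, and the excess was 0.56 with the 10 highest genes left out, 0.92 with TMM factors and 0.98 with DESeq2 size factors. The proteasome subunits *PSMC5*, *PSMA5*, *PSMD8-2* and *PSMD2-3* had 89.7, 41.1, 41.1 and 39.5 FPKM in muscle. Their highest levels elsewhere were 211 FPKM in brain, 123.7 FPKM in kidney and 269 and 98.2 FPKM in adipose tissue. Of these 4, *PSMD8-2* alone kept its place below another organ under every scaling. The medians of the sarcomere, excitation, membrane, sugar and transcription lists were -0.02, 0.40, -0.19, 0.04 and 1.01, each above that of all measured models, and the mitochondrial median was -1.21. The sarcomere excess of 0.99 over all measured models fell to 0.70 with the 10 highest genes left out, 0.17 with TMM factors and 0.12 with DESeq2 size factors, whereas the mitochondrial median passed from 0.21 below all measured models to 0.24, 0.89 and 1.01 above.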

How the data were processed

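The authors prepared strand-specific TruSeq libraries from Trizol-extracted total RNA. They used STAR (2.5.2b) for alignment and featureCounts (1.6.1) for counting over exons. They deposited raw, unnormalized counts and the exon length of each of 37562 gene models. Per the file headers, strand was not used and read ends were counted singly. Of counts from 1 to 4, 83.6% were even, so intervals (exact binomial, 95%) were computed on pairs of counts. FPKM was computed from counts, exon length and the assigned total. A count of 0 was taken to allow 3 pairs, or 6 counts. Alternatives used totals without the 10 highest genes, TMM (edgeR 4.0.16) and DESeq2 (1.42.0) size factors. Symbols, domains and chromosome positions came from the study's source tables, on its *E. atami* assembly, placing 19 scaffolds on 17 chromosomes. In 32 entries the position belonged to another model, and their symbols were not used. Their domains were given to the model at the listed position where it had no domain of its own. Named genes were the 15 members highest in muscle, members with a symbol, the 10 highest genes of the library and the 5 largest ratios. To these were added 4 members of each role list, those highest in muscle, and 3 genes on each side of the threshold. Models with a listed domain of myosin, troponin, nebulin, THB or calpain III were also named. The members and lists were chosen with earlier results of these data known. A result that the rule would name is not reported here. The rule was run on simulated counts in which all organs had the same levels apart from planted genes. It found genes planted above its fold limit and none planted below it. As the simulated libraries did not differ otherwise, this checks the calculation and does not bear on the choice of scaling.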

Additional observations from a re-analysis of the deposited data

How the results depend on the processing

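The set of 46 genes depended most on scaling and on the organs compared. It numbered 71 with the 10 highest genes left out of the totals, 166 with TMM factors, 190 with DESeq2 size factors, 87 with a fold of 3, 21 with a fold of 10 and 95 without slime gland. Without slime gland and heart it numbered 174, and without gills as well 200, both added after the data were seen. It kept between 41 and 61 genes under the other 5 alternatives. Ranking by counts moved the share of the 10 most abundant genes from 37.5% to 48.9%. Relative to all measured genes, the mitochondrial list's median log2 ratio moved from -0.21 to 0.24, 0.89 and 1.01 with the 10 highest left out, TMM and DESeq2, to 0.49 with a pseudocount of 0.1 FPKM and to -1.21 with no filter on low values. With no filter, the median of all genes is 0, and the sarcomere, membrane, transcription, turnover and sugar medians became -0.017, -0.19, -0.13, -0.81 and 0.037. Muscle, the lowest organ for connective tissue markers, was in place 4 from the lowest with TMM and place 5 with DESeq2, and for neural markers it moved from place 2 to 1, 7 and 9. With TMM and DESeq2 in turn, muscle became the highest organ for *CS* (ratios 1.05 and 1.16), *PSMC5* (2.08 and 2.23), *NDUFA11* (1.18 and 1.30), *PSMA5* (1.31 and 1.51), *PSMD2-3* (1.86 and 2.02), *KCNJ11-1* (1.79 and 1.98, and 1.93 without heart) and *GBE1* (2.79 and 3.09, and 1.42 with the 10 highest left out), and with DESeq2 for *DUSP27* (1.05). No paired analysis was possible because each organ has 1 library. With 1 library per organ, variation between animals could not be measured, and members with few counts, such as EA75454 with 192 in muscle, are the least certain.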
